A study of Homo sapiens with 4 samples.

Results

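The genes described here encode the proteins that hold RNA polymerase II (Pol II) at its pause near a start site, release it, carry it through the gene or end its transcript early. They are 41 genes, chosen by symbol from 10 complexes or related groups and from the largest subunits of Pol II itself, out of 58174 genes in the deposited tables. All 41 were found, and all 41 had counts enough to be among the 18984 genes tested. RNA was sequenced from 293FT cells, a fast-growing line of human embryonic kidney 293 origin that carries the SV40 large T antigen. There were 2 libraries of genotype NIPBLwt (wild type) and 2 of genotype NIPBLmut (mutant), numbered replicate 1 and 2 in each group. NIPBL encodes the loader of cohesin, the ring complex that holds and folds chromatin, and the series is titled for Cornelia de Lange and CHOPS syndromes. All libraries came from cells in the same medium with fetal bovine serum and with no treatment named. The labels name neither the NIPBL mutation nor the number of clones, and the control carries no named edit.

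After initiation Pol II stops within a short distance of the start site, held there by DSIF and NELF. The kinase P-TEFb, which waits in an inactive particle built on the 7SK RNA, is freed, phosphorylates both factors and the polymerase tail, and NELF leaves. The PAF complex, SPT6 and FACT then travel with the polymerase, CDK12 and CDK13 with cyclin K phosphorylate its tail, and TFIIS restarts it when it backtracks. Integrator acts at the same pause in the other direction: it cleaves the young RNA and brings a phosphatase, and it also processes small nuclear RNAs.

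The expected counts of the 4 libraries summed to between 31545743 and 33161120, and 26629 to 28663 genes had a count above 0. Levels are given as CPM, read counts expressed as a rate within the library after scaling between libraries, and 1 count was worth 0.0287 to 0.0335 CPM. The 2 mutant libraries lay close together and the 2 wild-type libraries did not: the median absolute log2 difference within a pair was 0.05 over the 41 genes for the mutant pair and 0.27 for the wild-type pair. Of 10 markers of the 293 line, all 10 were detected in every library, at a summed 1066 and 1224 CPM in wild-type replicates 1 and 2 and at 770 and 723 CPM in mutant replicates 1 and 2. Within that list NEFM, an intermediate filament gene, fell from 72.8 and 63.9 CPM in wild type to 1.33 and 0.833 CPM in the mutant libraries (edgeR log2 fold change -5.98, adjusted p 0.0086). LIN28B (-1.199) and VIM (-0.60) were also called lower, and KRT8 (0.83) was called higher. PAX2, a kidney lineage factor on that list, stood at 0.27 to 0.68 CPM. Leukocyte markers summed to at most 7.27 CPM, endothelial markers to at most 2.66 CPM and fibroblast markers to at most 18.0 CPM, with CD3E and COL1A2 at 0 in every library. Within these lists edgeR called HLA-DRA, LUM and PDGFRB higher (log2 fold changes 2.19, 1.84 and 2.81; at most 6.78 CPM) and COL3A1 lower (-2.04; at most 6.25 CPM). Whether these levels have a part in the values of the 41 genes was not tested. In bulk RNA, fewer cells of a type and less RNA per cell cannot be told apart. NIPBL itself was at 41.8 and 44.4 CPM in wild type, against 61.0 and 62.0 CPM in the mutant libraries (edgeR log2 fold change 0.51, SE 0.11, adjusted p 0.057). With the mutation unnamed, that level does not check the labels.

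Promoter sequences were taken for 4 of the 41 genes. In the RefSeq promoter table (GRCh38.p14, from 250 bases before to 50 bases after each start) 35 of the 41 symbols matched, with 46 promoters. Not matched were CDC73, INTS5, INTS8, INTS9, INTS10 and TCEA1. The sequences run 5′ to 3′ on the gene's strand and end at or before the RefSeq start they were taken for. Capitals mark matches, on either strand, to the GC box with the letters GGGCGG, the TATA box with TATAAA, the E box with CACGTG or the box named for its letters CCAAT. HEXIM1 and HEXIM2 are shown because they are neighbours on chromosome 17 that differed in sign, although HEXIM1 overlapped between genotypes (edgeR log2 fold change -0.15). MEPCE is shown because it had the lowest fold change of the 41, and POLR2A because it encodes the catalytic subunit. The windows are chr17:45148325-45148474 for HEXIM1, chr17:45161725-45161844 for HEXIM2, chr7:100429297-100429446 for MEPCE and chr17:7484264-7484365 for POLR2A, all on the plus strand. Those of HEXIM1 and POLR2A lie upstream of the annotated gene. Those of HEXIM2 and MEPCE lie inside it (45160700 to 45170040 and 100428790 to 100434126), before an alternative RefSeq start. Other promoters of HEXIM2 and MEPCE were matched and are not printed.
HEXIM1: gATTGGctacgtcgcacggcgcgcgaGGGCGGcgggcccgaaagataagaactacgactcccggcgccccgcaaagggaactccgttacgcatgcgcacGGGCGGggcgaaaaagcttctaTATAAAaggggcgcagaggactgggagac
HEXIM2: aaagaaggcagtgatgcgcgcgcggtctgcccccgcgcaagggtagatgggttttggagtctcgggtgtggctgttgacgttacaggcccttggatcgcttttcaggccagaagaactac
MEPCE: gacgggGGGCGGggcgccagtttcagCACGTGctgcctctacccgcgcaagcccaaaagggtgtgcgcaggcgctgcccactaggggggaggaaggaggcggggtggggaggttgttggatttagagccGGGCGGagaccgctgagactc
POLR2A: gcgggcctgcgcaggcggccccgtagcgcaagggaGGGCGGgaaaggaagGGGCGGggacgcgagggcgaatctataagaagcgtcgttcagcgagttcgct

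HEXIM1 held the only TATAAA match among the 46 promoters, with GC boxes and a CCAAT box upstream of it, while the printed HEXIM2 window held none of the marked motifs. Over its full length that HEXIM2 promoter held a CCAAT box, outside the printed window. Over the full promoters, TATAAA was in 1 of 46 (2.17%), against 6.56% of the 16576 promoters of tested protein-coding genes and 11.5% of all 35116. GGGCGG was in 32 of 46 (69.6%), against 64.8% and 45.0%. CCGGAAG, the letters of an ETS factor motif, was in 11 (23.9%), against 15.4% and 10.3%. AAGATGGC, the letters of the YY1 motif, was in 5 (10.9%), against 4.28% and 2.89%. CCAAT was in 12 (26.1%), against 34.3% and 34.6%, and CACGTG in 4 (8.70%), against 9.02% and 7.26%. The motif of the factor NRF1 was in 4 (8.70%), against 1.80% and 1.24%. The median promoter of the 41 genes had 9.33 CG dinucleotides per 100 bases, against 8.33 and 4.67. Both strands were searched, and none of these motifs contains another. Promoters of 1 gene can overlap, so these shares are descriptions.

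Transcripts of this machinery lay mostly on the lower side in the mutant libraries, by small amounts. NELFA, a NELF subunit, and INTS10, an Integrator subunit, were called lower (edgeR quasi-likelihood test, Benjamini-Hochberg adjusted p under 0.05 over all tested genes), and none of the 41 was called higher. The 2 called lower are 4.88% of the 41, where 2.1% of all tested genes were called lower and 3.71% higher. DESeq2 called 7 lower (17.1%, against 6.35% of all tested genes) and 0 higher (against 6.82%): NELFA and INTS10 again, with MEPCE, INTS7, INTS8, POLR2A and POLR2B. At an unadjusted edgeR p under 0.05 there were 14 lower and 4 higher, or 34.1% and 9.76%, where 13.8% and 15.9% of all tested genes stood. The labels do not say whether the libraries came from separate cultures, so p-values measure only the spread between these libraries, which may be technical.

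The log2 fold change, mutant over wild type, was below 0 in 32 of the 41 (78.0%, against 50.4% of all tested genes) and ran from -0.91 (MEPCE) to 0.64 (HEXIM2). Its median was -0.28, against -0.01 over all tested genes. Among the 11148 tested protein-coding genes that were at least as abundant as the lowest of the 41, the median was -0.07, and 57.4% lay below 0. Of those genes, 2.92% were called lower by edgeR. None of the 41 reached a log2 fold change of 1 in size. Both mutant libraries lay below both wild-type libraries for 24 genes (58.5%, against 30.8% of all tested genes) and above both for 5 (12.2%, against 32.3%). Scaling by total count moved the median of the 41 to -0.10 and that of all tested genes to 0.17, and the number below 0 to 24.

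Which wild-type library served as the comparator changed how low the mutant libraries stood. Against wild-type replicate 1 the median of the 41 was -0.11, and the mutant mean was lower for 25 genes (61.0%, against 49.8% of all tested genes). Against wild-type replicate 2 the median was -0.41, and the mutant mean was lower for 35 (85.4%, against 48.6%). Wild-type replicate 2 stood above replicate 1 for 36 of the 41 (87.8%, against 48.2%), with a median log2 difference of 0.24, where all tested genes had -0.02. The 11148 protein-coding genes at least as abundant as the lowest of the 41 had 0.09 there. Their medians were -0.01 against wild-type replicate 1 and -0.11 against replicate 2. Of the 41, all 25 below replicate 1 were also below replicate 2, a further 10 were below replicate 2 only, and 6 were above both. For 16 genes the 2 wild-type libraries differed by more than the fold change between genotypes.

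**Figure D1:**
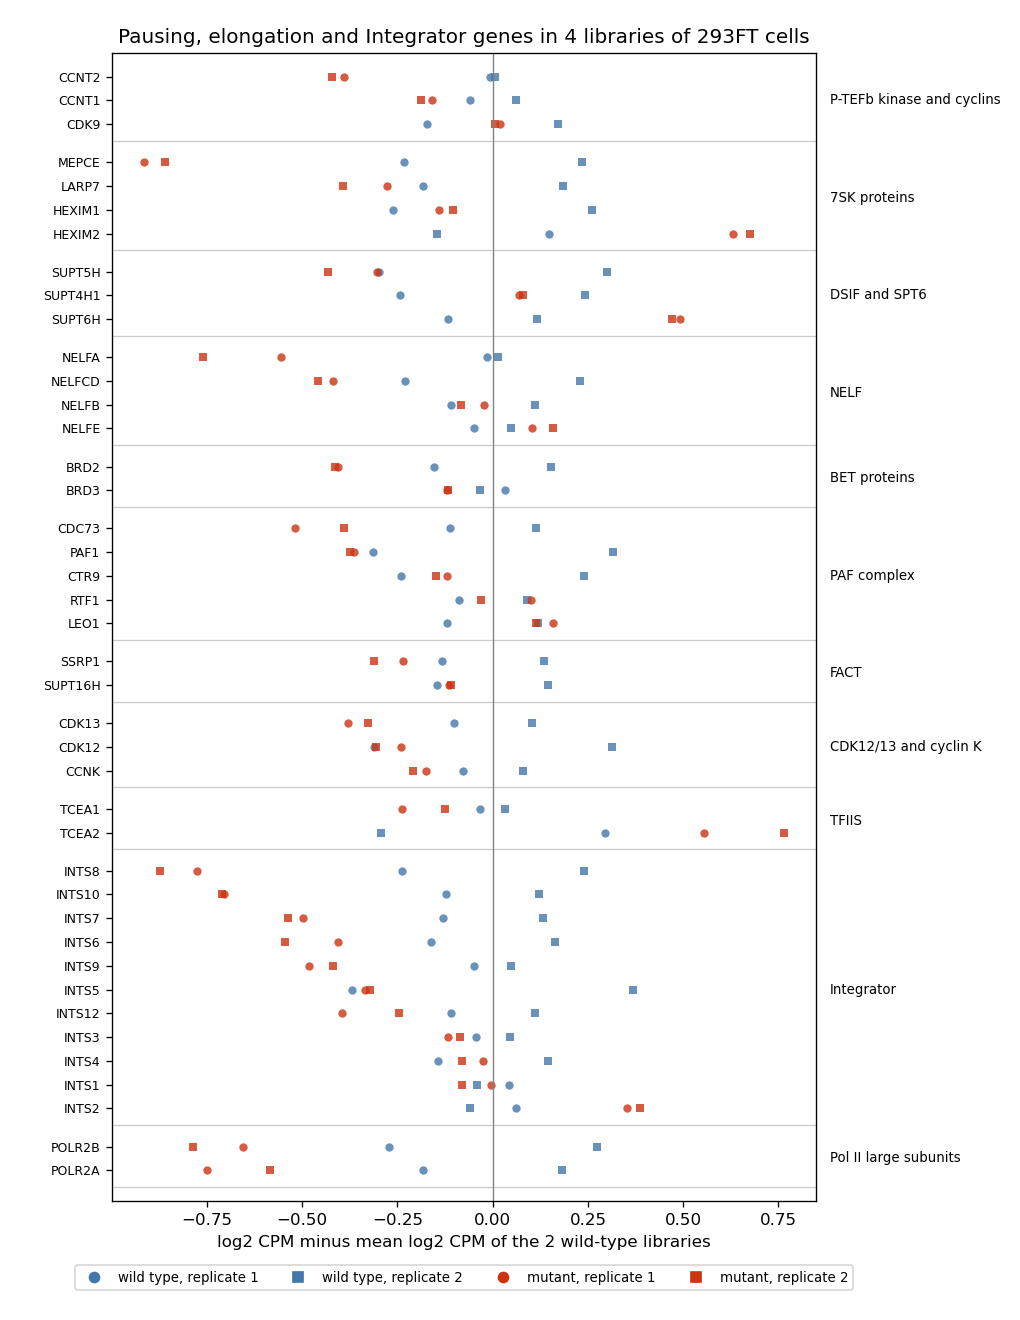
Each line is 1 gene, grouped by complex; the x axis is its log2 CPM in a library minus its mean log2 CPM over the 2 wild-type libraries. Circles are replicate 1 and squares replicate 2, wild type in blue and mutant in red; mutant points of MEPCE, INTS8, INTS10, POLR2A and POLR2B lie left of both wild-type points, and those of HEXIM2, SUPT6H, TCEA2 and INTS2 lie right of both.

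Another gene group separated the wild-type libraries in the same way. The 9 heat shock genes examined summed to 4587 CPM in wild-type replicate 1 and 11261 CPM in replicate 2, against 2647 and 2358 CPM in mutant replicates 1 and 2. All 9 lay below both wild-type libraries in both mutant libraries, and 3 (HSPD1, HSPE1 and HSPA4L) were called lower by edgeR, at log2 fold changes of -1.28, -1.59 and -1.22. Whether their level has a part in the values of the 41 genes was not tested.

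**Figure D2:**
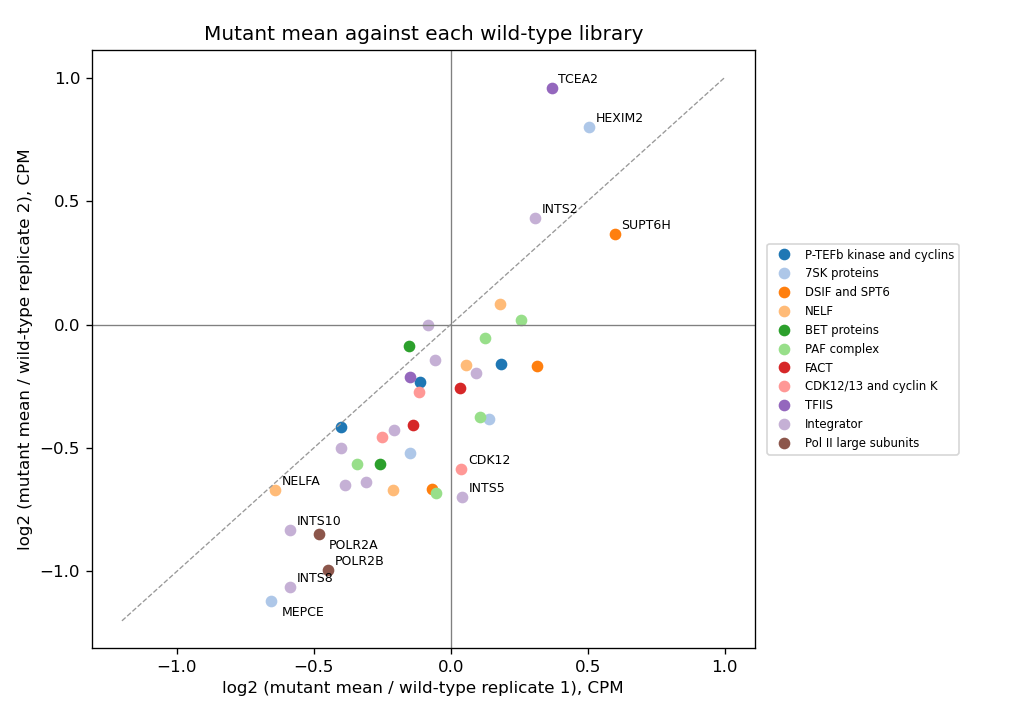
Each point is 1 of the 41 genes; the x axis is the log2 ratio of the mutant mean CPM to wild-type replicate 1 and the y axis the same ratio to wild-type replicate 2, with colours for complexes and a dashed line where both ratios are equal. Of the points, 25 lie below 0 on both axes, 10 below 0 only on the y axis and 6 above 0 on both.

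Both large subunits of Pol II were low in the mutant libraries, and neither was called. POLR2A, the catalytic subunit that carries the C-terminal tail, was at 21.6 and 27.8 CPM in wild-type replicates 1 and 2 and at 14.6 and 16.3 CPM in the mutant libraries. The groups did not overlap (edgeR log2 fold change -0.68, SE 0.17, adjusted p 0.0756). POLR2B, the second-largest subunit, was at 246 and 359 CPM in the wild-type libraries and at 189 and 172 CPM in the mutant libraries. Again both mutant libraries were the lowest, but the wild-type libraries lay far apart (log2 fold change -0.75, SE 0.20, edgeR adjusted p 0.0848). Against wild-type replicate 1 the log2 ratios were -0.48 for POLR2A and -0.45 for POLR2B, and against replicate 2 they were -0.85 and -0.99. DESeq2 called both lower (adjusted p 0.0271 for POLR2A and 0.00615 for POLR2B). With effective length offsets edgeR also called POLR2A lower (log2 fold change -0.89, adjusted p 0.0386).

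The 2 subunits enter the enzyme in equal number, yet per length their transcripts differed: POLR2A stood at 9.0, 10.2, 5.6 and 6.24 TPM over wild-type replicates 1 and 2 and mutant replicates 1 and 2, and POLR2B at 64.2, 85.4, 54.8 and 50.9 TPM. TPM is RSEM's abundance per length, scaled to a fixed library total. The POLR2A value rests on the annotation used for counting, whose release was not given in the sources used here. GENCODE 29 lists 9 transcripts of POLR2A (ENSG00000181222, chromosome 17, 7484366 to 7514616, plus strand), of which 7 are retained-intron transcripts of 245 to 702 bases. The longest, of 6751 bases, is not typed as protein-coding there, and the protein-coding transcript has 2083 bases. The deposited isoform-weighted length of POLR2A was 1929 and 2089 bases in wild type and 2329 and 2345 bases in the mutant libraries. Its level per length thus depends on how reads were shared among its transcripts in the annotation used. The same holds for its fold change with effective length offsets.

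Over the P-TEFb kinase and its cyclins the median log2 fold change was -0.17, and none of the 3 was called. CDK9, the kinase, was at 20.3 and 25.8 CPM in wild type, against 23.2 and 23.0 CPM in the mutant libraries (log2 fold change 0.00, SE 0.15). Its mutant values lay between the wild-type ones. CCNT2, the less abundant cyclin T, was at 68.7 and 69.4 CPM in the wild-type libraries and at 52.7 and 51.5 CPM in the mutant libraries. Here both pairs were tight and did not overlap (log2 fold change -0.41, SE 0.11, edgeR adjusted p 0.080). CCNT1, the main cyclin T, had a log2 fold change of -0.17 (SE 0.11).

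Of the 7SK particle's proteins MEPCE and HEXIM2 stood farthest from wild type, in opposite directions, and neither was called. MEPCE caps the 7SK RNA and stays in the particle. It was at 57.0 and 78.7 CPM in wild type, against 35.5 and 36.9 CPM in the mutant libraries. Both mutant libraries were well under the lower wild-type one (log2 fold change -0.91, SE 0.18, edgeR adjusted p 0.0511). DESeq2 called it lower (adjusted p 0.000533), as did edgeR with effective length offsets, no filter on low counts, total count scaling, upper quartile scaling and the replicate block (adjusted p 0.00649 to 0.0486). With the fold change of its chromosomal neighbourhood removed, its log2 fold change was -0.50 (adjusted p 0.17). HEXIM2, which with its paralog HEXIM1 inhibits the kinase, was at 6.90 and 5.62 CPM in the wild-type libraries and at 9.64 and 9.94 CPM in the mutant libraries. Both mutant libraries were above both wild-type ones (log2 fold change 0.64, SE 0.19, edgeR adjusted p 0.096). HEXIM1 was at 17.1 and 24.6 CPM in wild type, against 18.6 and 19.1 CPM in the mutant libraries, and the groups overlapped (log2 fold change -0.15). LARP7, which binds the 3′ end of the 7SK RNA, had a log2 fold change of -0.35 (SE 0.16, edgeR adjusted p 0.21).

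The RNA of the particle, RN7SK, was called lower. It was at 30536 and 28332 CPM in the wild-type libraries and at 21005 and 21795 CPM in the mutant libraries, which were the lowest (log2 fold change -0.46, SE 0.09, edgeR adjusted p 0.0455). The call was lost with total count scaling (log2 fold change -0.29, adjusted p 0.172), with upper quartile scaling (-0.38, adjusted p 0.109), on TPM with limma (-0.26, adjusted p 0.0959), with no filter (adjusted p 0.0726), with the replicate block (adjusted p 0.0691) and without either mutant library (adjusted p 0.423 without replicate 1 and 0.395 without replicate 2). GENCODE 29 holds 293 annotated RN7SK copies, so reads of this gene could be split among near-identical sequences.

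DSIF and SPT6 had 1 gene of 3 below 0 in log2 fold change, and none was called. SUPT6H, which encodes the histone chaperone SPT6, was at 94.0 and 111 CPM in wild type, against 143 and 141 CPM in the mutant libraries, both above wild type (log2 fold change 0.48, SE 0.13, edgeR adjusted p 0.0835). It was called higher with total count scaling (log2 fold change 0.65, adjusted p 0.0341) and with upper quartile scaling (0.56, adjusted p 0.0421). SUPT5H, the large DSIF subunit that P-TEFb phosphorylates, was at 66.8 and 101 CPM in the wild-type libraries and at 66.6 and 60.9 CPM in the mutant libraries. Mutant replicate 1 all but met wild-type replicate 1 (log2 fold change -0.40, SE 0.21, edgeR adjusted p 0.271). SUPT4H1, the small DSIF subunit, was at 60.3 and 84.4 CPM in wild type, against 74.8 and 75.3 CPM in the mutant libraries, between the wild-type values. Its log2 fold change of 0.05 turned to -0.18 without wild-type replicate 1 and was 0.31 without wild-type replicate 2. Each of these fits left a lone wild-type library, so only the fold changes are given.

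NELF was uneven across its 4 subunits. NELFA (ENSG00000185049, chromosome 4, 1982714 to 2041903, minus strand) contacts Pol II and is the subunit called lower. It was at 35.7 and 36.4 CPM in the wild-type libraries and at 24.6 and 21.3 CPM in the mutant libraries, or 36.1 ± 0.517 against 22.9 ± 2.31 CPM (SD, n = 2 each). The wild-type libraries were nearly equal, and both mutant libraries lay below them (log2 fold change -0.65, SE 0.13, edgeR adjusted p 0.0484; -0.64 against wild-type replicate 1 and -0.67 against replicate 2). The call was lost with effective length offsets (adjusted p 0.0531), on TPM with limma (log2 fold change -0.47, adjusted p 0.0993), with total count scaling (-0.48, adjusted p 0.0763), with upper quartile scaling (adjusted p 0.0604) and without either mutant library (adjusted p 0.209 without replicate 1 and 0.479 without replicate 2). It was also lost when the fold change of its chromosomal neighbourhood was removed, which left a log2 fold change of -0.11 (edgeR adjusted p 0.609).

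NELFCD, which pairs with NELFA, was at 94.8 and 130 CPM in wild type, against 83.1 and 80.9 CPM in the mutant libraries. The groups did not overlap, but the wild-type libraries differed by more than the nearer one differed from the mutant libraries (log2 fold change -0.46, SE 0.18, edgeR adjusted p 0.157). NELFB, which joins the pair to NELFE, had a log2 fold change of -0.06 and NELFE, the RNA-binding subunit, one of 0.13, and neither was called. In TPM, NELFA was the lowest of the 4 subunits in every library, at 15.7 and 14.6 in wild type and 11.7 and 9.63 in the mutant libraries.

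The BET proteins, readers of acetylated histones, had no call. BRD2 was at 236 and 292 CPM in the wild-type libraries and at 198 and 197 CPM in the mutant libraries, both below wild type (log2 fold change -0.42, SE 0.14, edgeR adjusted p 0.127). BRD3, at 24.98 and 23.9 CPM in wild type and 22.5 CPM in both mutant libraries, had a log2 fold change of -0.12.

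In the PAF complex none of 5 was called, with log2 fold changes from -0.46 to 0.13. CDC73, its parafibromin subunit, was at 43.4 and 50.8 CPM in wild type, against 32.8 and 35.8 CPM in the mutant libraries, without overlap (log2 fold change -0.46, SE 0.13, edgeR adjusted p 0.0963). PAF1, for which the complex is named, was at 47.1 and 72.9 CPM in the wild-type libraries and at 45.5 and 45.2 CPM in the mutant libraries. Its log2 ratio was -0.05 against wild-type replicate 1 and -0.68 against replicate 2, so its distance from wild type came from 1 library. CTR9, the scaffold, had a log2 fold change of -0.15, RTF1, which stimulates H2B ubiquitination, one of 0.03, and LEO1 one of 0.13.

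FACT, a histone chaperone of 2 subunits, gave the most abundant transcripts per length among the 41 genes. SSRP1 stood at 140 and 160 TPM in wild type and 144 and 138 TPM in the mutant libraries, and SUPT16H at 87.5 and 98.6 against 100 and 99.8 TPM. In CPM, SSRP1 was at 476 and 573 in wild type and at 444 and 421 in the mutant libraries (log2 fold change -0.28, SE 0.13, edgeR adjusted p 0.23). Both mutant values were the lowest. SUPT16H overlapped between genotypes, with a log2 fold change of -0.12.

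CDK12, CDK13 and their cyclin CCNK all lay below 0, and none was called. CDK13 was at 66.9 and 77.0 CPM in wild type, against 55.1 and 57.2 CPM in the mutant libraries, without overlap (log2 fold change -0.36, SE 0.12, edgeR adjusted p 0.131). CDK12 was at 105 and 162 CPM in the wild-type libraries and at 111 and 106 CPM in the mutant libraries. Its log2 ratio was 0.04 against wild-type replicate 1 and -0.59 against replicate 2. CCNK had the lowest TPM of the 41 genes in each library, at 2.13 to 2.58, and a log2 fold change of -0.19. More than 20% of its exon bases (59.5%) are shared with CCDC85C on the opposite strand, and whether the counting used strand is not given in the sources used here.

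The TFIIS genes differed in sign, and neither was called. TCEA2 was at 13.9 and 9.24 CPM in wild type, against 16.6 and 19.2 CPM in the mutant libraries, both above wild type (log2 fold change 0.63, SE 0.23, edgeR adjusted p 0.142). TCEA1, the more abundant form, was at 193 and 202 CPM in the wild-type libraries and at 167 and 181 CPM in the mutant libraries (log2 fold change -0.18, edgeR adjusted p 0.336).

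Integrator was the largest group, and 10 of its 11 genes lay below 0, with a median log2 fold change of -0.38. The median was -0.21 against wild-type replicate 1 and -0.50 against replicate 2. INTS10 (ENSG00000104613, chromosome 8, 19817140 to 19852083, plus strand), of the arm module, was called lower. It was at 103 and 122 CPM in wild type, against 68.8 and 68.5 CPM in the mutant libraries, or 113 ± 13.4 against 68.7 ± 0.213 CPM (SD, n = 2 each). Both mutant libraries lay far below both wild-type ones (log2 fold change -0.71, SE 0.13, edgeR adjusted p 0.0439; -0.59 against wild-type replicate 1 and -0.83 against replicate 2). The call was lost with effective length offsets (log2 fold change -0.57, adjusted p 0.0760), on TPM with limma (-0.38, adjusted p 0.148), with the neighbourhood removed (-0.42, adjusted p 0.136) and without either mutant library (adjusted p 0.287 without replicate 1 and 0.327 without replicate 2).

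INTS8, which contacts the phosphatase, was at 86.1 and 120 CPM in the wild-type libraries and at 59.3 and 55.4 CPM in the mutant libraries. It was lower in both mutant libraries and not called (log2 fold change -0.84, SE 0.18, edgeR adjusted p 0.0578), and DESeq2 called it (adjusted p 0.00123). Its exons share 20.7% of their bases with CCNE2 on the opposite strand. INTS7, a backbone subunit, was at 52.0 and 62.5 CPM in wild type, against 40.4 and 39.3 CPM in the mutant libraries, without overlap (log2 fold change -0.52, SE 0.13, edgeR adjusted p 0.0771, DESeq2 adjusted p 0.0403).

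INTS6, of the phosphatase module, was at 60.6 and 76.0 CPM in the wild-type libraries and at 51.2 and 46.6 CPM in the mutant libraries (log2 fold change -0.48, SE 0.15, edgeR adjusted p 0.11). INTS9, of the cleavage module, was at 22.0 and 23.5 CPM in wild type, against 16.3 and 17.0 CPM in the mutant libraries (log2 fold change -0.45, SE 0.13, edgeR adjusted p 0.0877). In both genes the groups did not overlap, and neither was called. INTS2, a backbone subunit, stood on the other side: it was at 92.5 and 85.0 CPM in the wild-type libraries and at 113 and 116 CPM in the mutant libraries. Both mutant libraries were above both wild-type ones (log2 fold change 0.37, SE 0.11, edgeR adjusted p 0.106).

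The remaining 5 Integrator genes had an edgeR p above the threshold, adjusted or not. INTS5, which pairs with INTS8, was at 30.1 and 50.3 CPM in wild type, against 30.9 and 31.1 CPM in the mutant libraries, so that only wild-type replicate 2 stood apart (log2 fold change -0.38, SE 0.25, edgeR adjusted p 0.357). INTS12, a small subunit with a PHD finger, had a log2 fold change of -0.32 (edgeR adjusted p 0.227). INTS1, the largest subunit, INTS3, which also serves in a DNA repair complex, and INTS4, the scaffold of the cleavage module, had log2 fold changes of -0.04, -0.10 and -0.06. Modules were not uniform when subunits outside the 41 were added. In the arm, INTS13 was called lower at -0.80, beside INTS10 at -0.71, whereas INTS14 stood at -0.04 and C7orf26 at 0.35. In the cleavage module INTS11, the nuclease, stood at -0.03, beside INTS9 at -0.45.

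Pairs of paralogs offered a comparison within each library, as the share of the pair's summed TPM. TCEA2 made up 13.5% and 8.77% of its pair in wild-type replicates 1 and 2 and 20.3% and 20.9% in mutant replicates 1 and 2. HEXIM2 made up 59.4% and 45.3% in wild type and 66.4% and 64.0% in the mutant libraries. For both pairs the mutant shares were the highest. CCNT2 made up 31.49% and 29.8% in wild type and 27.6% and 25.6% in the mutant libraries, where both shares were the lowest. CDK13 (33.3% to 39.2%) and BRD3 (4.39% to 5.88%) overlapped between genotypes. With 2 libraries against 2, the smallest exact two-sided permutation p is 0.333, so the exact test could not separate the shares, and no test of them is given.

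**Figure D3:**
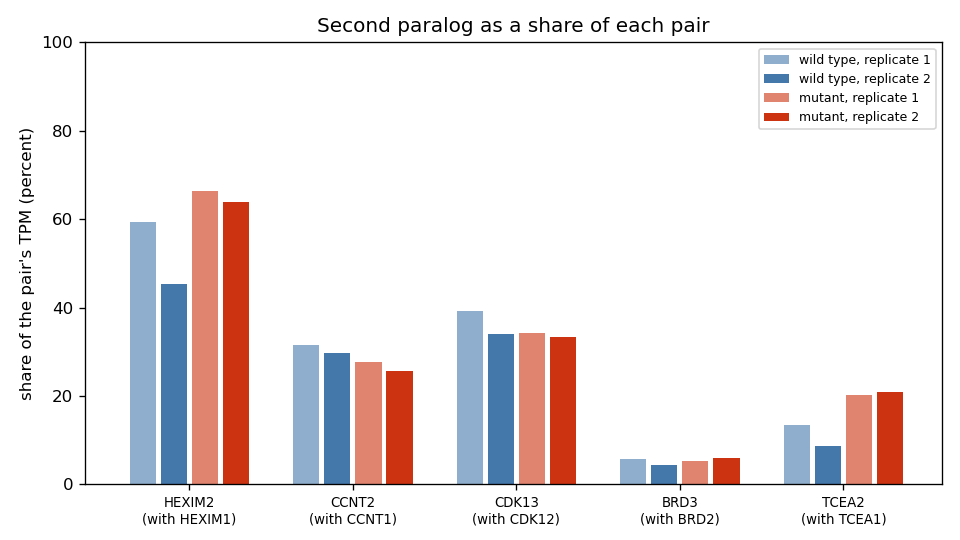
Each group of bars is 1 pair of paralogs and each bar 1 library (wild type in blue, mutant in red, replicate 1 pale, replicate 2 dark); the y axis is the percent of the pair's summed TPM that the named gene makes up. TCEA2 and HEXIM2 take their highest shares in the 2 mutant libraries and CCNT2 its lowest.

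Fold changes of the 41 genes correlated with those of the genes around them, but lay mostly lower. For each gene a neighbourhood median was taken, over 25 tested protein-coding genes upstream and 25 downstream. Across the 41, the gene's own value and its neighbourhood median had a Pearson correlation of 0.65 and a Spearman correlation of 0.66, against 0.22 and 0.29 across 18919 tested genes. The 18919 were not matched to the 41 in gene type or abundance, so these correlations are not like for like. The correlations are descriptions across genes that share libraries, and HEXIM1 and HEXIM2 also share neighbours. The neighbourhood medians of the 41 had a median of 0.03, with 17 below 0, where the genes' own median was -0.28. With the fold change of each neighbourhood removed, the median log2 fold change of the 41 was -0.23, and 34 lay below 0. NELFA had a neighbourhood median of -0.54, CCNT2 one of -0.45 and INTS9 one of -0.46, close to their own values. POLR2A stood at -0.68 in a neighbourhood of -0.07, BRD2 at -0.42 in one of 0.19, and TCEA2 at 0.63 in one of 0.01. INTS8 stood at -0.84 in a neighbourhood of -0.20, and CDK12 at -0.31 in one of 0.31. The 4 genes on chromosome 8 (INTS8, INTS9, INTS10, TCEA1) had a median of -0.58, where the chromosome's 658 tested genes had -0.26. On chromosome 4, INTS12, LARP7, NELFA and POLR2B had a median of -0.50, where its 686 tested genes had -0.22. CTR9, INTS4, INTS5 and SSRP1, on chromosome 11, had a median of -0.22, where its 987 tested genes had 0.06. On chromosome 17, 7 genes ran from -0.68 (POLR2A) to 0.64 (HEXIM2), where its 1166 tested genes had a median of 0.21. DNA copy number was not measured, and its part in these values was not tested.

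**Figure D4:**
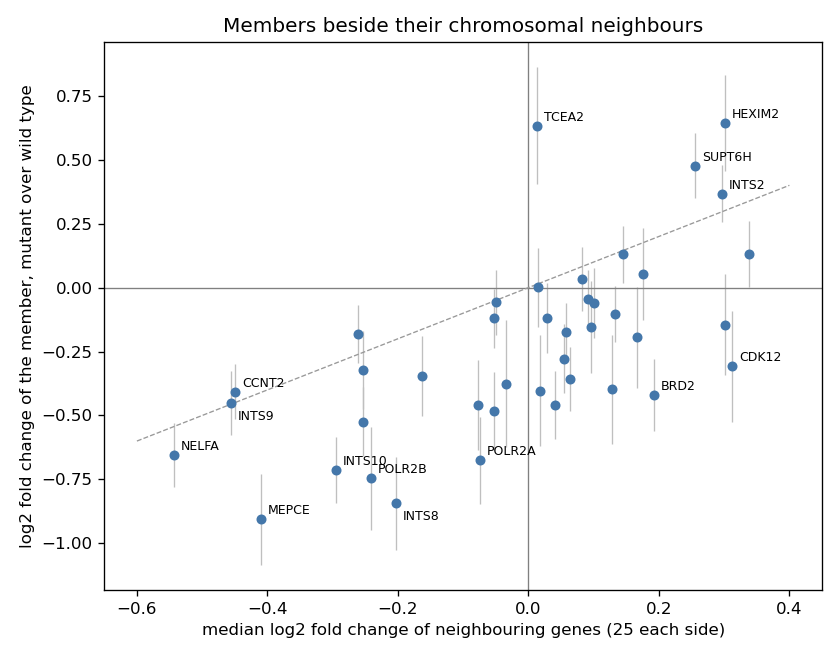
Each point is 1 of the 41 genes; the x axis is the median log2 fold change of its neighbours, 25 to either side, and the y axis its own log2 fold change, mutant over wild type, with its SE as a bar; the dashed line marks equal values. Points follow the neighbourhood loosely (Pearson 0.65), with INTS8, CDK12, BRD2 and POLR2A the farthest below their neighbourhoods and TCEA2 the farthest above.

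The deposited isoform-weighted lengths give a readout of transcript form. Both mutant libraries had a longer mean length than both wild-type libraries for 7 of the 41 genes, and a shorter one for 8, against 17.1% and 13.8% of all tested genes. The longer ones were thus at the share of all tested genes and the shorter ones somewhat above it. Genes named here are examples, and no length was tested. POLR2A was 16.3% longer in the mutant mean. TCEA1 was at 1837 and 1768 bases in wild type and 2010 and 2054 bases in the mutant libraries, and SUPT4H1 at 845 and 851 against 888 and 933 bases. INTS7 was at 2487 and 2589 bases in wild type and 2386 and 2379 bases in the mutant libraries. For SUPT4H1, 63.7% of the exon bases are shared with AC004687.2 on the same strand, and for HEXIM2 50.3% with AC138150.2 on the opposite strand. Annotated pseudogenes exist for 7 of the 41, among them LARP7 and TCEA1 with 4 each, so their counts could hold reads of copies.

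The rest of the pathway was described by 69 further genes: other Integrator and Pol II subunits, initiation factors with TFIIH, other elongation factors, and tail phosphatases with termination factors. None was called higher by edgeR or DESeq2. The edgeR test called 2 lower, or 2.90%, against 2.1% of all tested genes, and DESeq2 called 12 lower, or 17.4%, against 6.35%. At an unadjusted edgeR p under 0.05 there were 18 lower (26.1%, against 13.8%) and 2 higher (2.90%, against 15.9%). INTS13, of the Integrator arm, was at 87.8 and 106 CPM in the wild-type libraries and at 58.2 and 53.4 CPM in the mutant libraries (log2 fold change -0.80, SE 0.14, edgeR adjusted p 0.0420). Both mutant libraries were well below both wild-type ones. The call was lost on TPM with limma (adjusted p 0.0533) and without either mutant library (adjusted p 0.157 without replicate 1 and 0.291 without replicate 2).

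For the 69 the median log2 fold change was -0.21, and 58 (84.1%) lay below 0, near the values of the 41. Their median was -0.07 against wild-type replicate 1 and -0.32 against replicate 2, so the dependence on the comparator was also found there. By list, the medians were -0.11 for the other Integrator genes, -0.24 for the other Pol II subunits, -0.10 for initiation factors with TFIIH, -0.29 for the other elongation factors and -0.24 for tail phosphatases with termination factors.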

How the data were processed

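RNA was measured in 4 libraries, 2 per genotype. Ribosomal RNA was removed from total RNA before directional library preparation, per the labels. STAR 2.7.3a, RSEM 1.3.1 and hg38 were used, per the submitters' processing notes; the annotation release and the strand setting were not given in the sources used here. The authors deposited 1 table per library with expected counts (RSEM's estimated reads per gene), TPM, FPKM (not used) and isoform-weighted lengths, per the file headers. Identifiers were matched without version to GENCODE 29 (57836 of 58174), whose coordinates are printed.

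The rounded expected counts entered edgeR 4.0.16 under R 4.3.3 (filterByExpr by group, TMM scaling, robust quasi-likelihood test, Benjamini-Hochberg over the 18984 tested genes, called under 0.05). CPM are TMM-scaled. The design used all 4 libraries and no covariate. Replicates differed by a chi-square per gene of 28.9 (wild type) and 2.88 (mutant). Every library was counted as a sample, although these values cannot show whether the libraries came from separate cultures. With 31545743 to 33161120 counts per library, 1 count was worth 0.0287 to 0.0335 CPM.

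The 41 genes, the other lists and the motifs were chosen with earlier results of these data known. Named with values in every library were genes called, genes with an unadjusted p under 0.05, the gene of each complex farthest from 0 and POLR2A; other values are given to show overlap. In the lists of other pathway genes up to 2 called genes in each direction were named, except 1 that is not reported here. Called marker and heat shock genes were named after their values were seen. Alternatives were DESeq2 1.42.0, RLE, upper quartile and total count scaling, effective length offsets, limma-trend (limma 3.58.1) on log2(TPM + 1), no filter or at least 1 CPM in 2 libraries, an offset for the median of 25 tested protein-coding neighbours to either side, a replicate block, and leaving out each library.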

Additional observations from a re-analysis of the deposited data

How the results depend on the processing

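Among all tested genes edgeR called 704 higher and 399 lower. The counts were 1294 and 1206 with DESeq2, 439 and 167 with the neighbourhood offset, and 1132 and 786 with no filter. Total count scaling called 1112 higher, and limma on TPM 119 lower. Of the 41 genes, 7 were called lower with DESeq2, 4 with no filter (adding MEPCE and INTS8) and 0 with limma on TPM and with the neighbourhood offset; 1 (SUPT6H) was called higher with total count and with upper quartile scaling. Their median log2 fold change moved to -0.062 with limma on TPM and -0.10 with total count scaling, where the median of all tested genes was 0.12 and 0.17. Of the 69 further genes, 12 were called lower with DESeq2, 10 with no filter, 1 with RLE scaling and 0 with limma on TPM, and 2 were called higher with total count scaling; their median moved to -0.022 with limma on TPM and -0.028 with total count scaling. Deviations of same-numbered libraries from their group means correlated at -0.06 across genes. With 2 libraries per group this cannot show whether replicate numbers pair the libraries. With the replicate block the calls were 1470 higher and 809 lower over all tested genes, 6 lower among the 41 and 9 lower among the 69. Leaving out each library in turn gave 335 to 5909 higher and 64 to 5931 lower over all tested genes, 0 to 7 higher and 0 to 30 lower among the 41 (median -0.42 to -0.12), and 0 to 9 higher and 0 to 48 lower among the 69 (median -0.33 to -0.07). The upper ends come from leaving out a wild-type library, where the spread is taken from the close mutant pair alone and the lone library is assumed to vary like it. The log2 fold change of SUPT4H1 ran from -0.18 without wild-type replicate 1, a reversal, to 0.31 without replicate 2. Of the 41 genes, 21 kept their sign under every alternative listed, 17 lower and 4 higher (HEXIM2, SUPT6H, TCEA2, INTS2). Signs turned for 8 genes with total count scaling (BRD3, CTR9, HEXIM1, INTS1, INTS3, INTS4, NELFB, SUPT16H) and for 9 on TPM, 8 with the neighbourhood offset, 7 without wild-type replicate 2, and 0 to 3 under each other alternative. With the neighbourhood offset CDK9, LEO1, NELFE, RTF1 and SUPT4H1 turned to below 0, and CCNT2, INTS9 and TCEA1 to above 0. That left 34 of the 41 below 0, against 32 in the main fit, with a median of -0.23. Causes were not tested.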

Other observations

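Among the 69 further genes, 3 had lower log2 fold changes than any of the 41 and were singled out after their values were seen. SRRT, which encodes ARS2, a partner of the nuclear cap-binding complex, was at 68.7 and 134 CPM in wild-type replicates 1 and 2 and at 43.8 and 38.0 CPM in mutant replicates 1 and 2 (log2 fold change -1.31, SE 0.32, edgeR adjusted p 0.0715). POLR2L, a small subunit shared by the nuclear RNA polymerases, was at 47.1 and 76.9 CPM in the wild-type libraries and at 31.4 and 25.7 CPM in the mutant libraries (log2 fold change -1.12, SE 0.26, edgeR adjusted p 0.0648). ELOC, elongin C, was at 51.7 and 79.1 CPM in wild type, against 33.8 and 32.4 CPM in the mutant libraries (log2 fold change -0.98, SE 0.22, edgeR adjusted p 0.0598). In each the mutant libraries were the lowest and wild-type replicate 2 the highest, and none was called by edgeR, while DESeq2 called all 3 (adjusted p 0.000132, 0.000363 and 0.000694). In the other direction POLR2H, another subunit shared by the polymerases, was at 63.3 and 81.7 CPM in the wild-type libraries and at 96.9 and 100.2 CPM in the mutant libraries (log2 fold change 0.44, SE 0.15, edgeR adjusted p 0.132), in a neighbourhood with a median of 0.72.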
